A study of Homo sapiens with 9 samples.

Results

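Cells hold on to the extracellular matrix through integrins, and the matrix that lies directly under an epithelium is built of laminins, collagens and associated glycoproteins. The genes described here were the integrin alpha and beta chains, the laminin alpha, beta and gamma chains and the collagen chains, chosen by gene symbol alone, together with FN1, which encodes fibronectin. The rule took 81 of the 24204 gene symbols in the table, namely 25 integrins, 12 laminins, 43 collagens and FN1. ITGA8 and COL6A6 were not analysed here.

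RNA-seq had been done on HepG2, a cell line grown from a human liver tumour, to ask which transcripts depend on TRIB3, a pseudokinase that is induced when amino acids run short. HepG2 cells received a lentivirus with a control hairpin (Control shRNA, here shCtrl), or with the hairpin TRIB3 sh1 (shTRIB3-1) or TRIB3 sh2 (shTRIB3-2), each directed at TRIB3 mRNA, and each group had 3 libraries. The cells of every group, controls included, had 48 h of infection followed by 48 h of puromycin, so each library came from a selected pool of infected cells and not from a clone. By the labels they grew in high-glucose DMEM with 10% fetal bovine serum. The study's methods, in a passage shared by its glutamine and knockdown RNA-seq, describe RNA from glutamine-deprived cells and another library kit. Its Discussion reports altered repair gene expression after TRIB3 depletion without glutamine deprivation. The medium at harvest is thus uncertain, and this applies to every value below. No label says that libraries of a group came from separate cultures, and p-values then measure only the spread between libraries, which may be technical.

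The hairpin targets are shown because the hairpin is what the labels give as the difference between the groups. Both matched TRIB3 exactly within the coding part of a single exon (GRCh38, plus strand), shTRIB3-1 at chr20:388072-388092 and shTRIB3-2 at chr20:391473-391493.
shTRIB3-1: tggatgacaacttagataccg
shTRIB3-2: gccgtgctcttccgccagatg
TRIB3 itself stood at 66.8 ± 1.08 FPKM in shCtrl, 33.6 ± 0.760 for shTRIB3-1 and 20.5 ± 0.171 for shTRIB3-2 (SD, n = 3 each), so shTRIB3-2 left less of the transcript than shTRIB3-1. FPKM is the number of sequenced fragments scaled for gene length and library size. Libraries held 34206726 to 36311029 fragments, so depth differed little between them, and fragment numbers recovered from the FPKM values are given below for genes with few fragments. HepG2 identity was checked with 8 hepatocyte genes, all of them expressed, whose summed level was 7354 to 8040 FPKM in shCtrl, 7875 to 8297 for shTRIB3-1 and 9855 to 10122 for shTRIB3-2. The sum came mostly from ALB and hid opposite changes of single genes. In the same order of groups, means were 196, 103 and 141 FPKM for FGB and 1125, 1738 and 1819 for APOA1.

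An integrin is a pair of 1 alpha and 1 beta chain that binds a matrix protein outside the cell and, through adaptor proteins, the actin skeleton inside. Alpha chains set much of the ligand choice, and ITGB1 encodes the beta chain that most alpha chains of adherent cells pair with. A laminin is a trimer of 1 alpha, 1 beta and 1 gamma chain, and collagen chains assemble as triple helices that form fibrils, networks or filaments. In bulk RNA, as here, fewer cells expressing a gene and less RNA per cell cannot be told apart.

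HepG2 cells expressed a narrow set of these genes. Of the 81 genes, 26 reached at least 1 FPKM in at least 3 of the 9 libraries and were tested, comprising 11 integrins (7 alpha, 4 beta), 7 laminins, 7 collagens and FN1. The other 55 genes, 36 of them collagens, lay under that level, and 28 of these had at most 5 fragments in every library. FN1 dominated with 1097 ± 4.90 FPKM in shCtrl, or 66.8% ± 0.221 of the FPKM of the 81 genes together, and ranked between 23 and 32 among all genes in the 9 libraries. The next genes in shCtrl were ITGB1 at 151 ± 1.16 FPKM and LAMB1 at 47.8 ± 1.06, followed by LAMB2 at 40.3 ± 0.481, ITGA6 at 40.2 ± 0.730 and LAMC1 at 39.7 ± 0.453, which did not differ from one another beyond about the spread of their replicates (SD, n = 3 each). LAMA5, the main alpha chain, was listed at 26.9 ± 0.766 FPKM and took 93.9% ± 0.111 of the FPKM of the 5 laminin alpha chains.

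**Figure D1:**
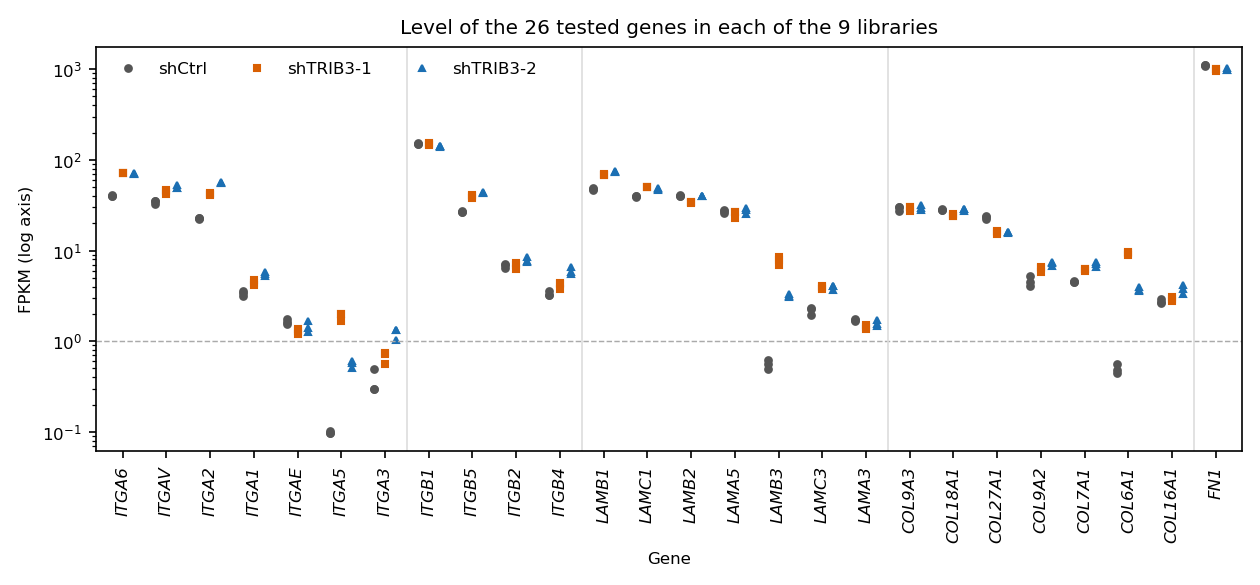
FPKM of the 26 tested genes on a log axis, with 1 point per library and the groups side by side (shCtrl circles, shTRIB3-1 squares, shTRIB3-2 triangles). Vertical lines part integrin alpha chains, integrin beta chains, laminins, collagens and FN1, and the dashed line marks 1 FPKM. COL6A1, LAMB3 and ITGA5 lie below 1 FPKM in shCtrl and highest in shTRIB3-1, while FN1 stays between 961 and 1101 FPKM in all 9 libraries.

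With TRIB3 knocked down, 3 genes of 3 different families rose most: COL6A1, LAMB3 and ITGA5. They were called higher with both hairpins, at a limma adjusted p under 0.05 with a log2 fold change above 1. With shTRIB3-2, ITGA2 and ITGA3 were called higher too, so 3 of 26 tested genes were called higher with shTRIB3-1 and 5 of 26 with shTRIB3-2, and 0 were called lower with either. Over all 11265 tested genes, 5.39% were called higher and 6.1% lower with shTRIB3-1, 6.06% higher and 6.27% lower with shTRIB3-2, and 4.32% higher and 4.74% lower with both. COL6A1, LAMB3, ITGA5 and ITGA3 reached the 1 FPKM minimum only through the groups in which they were high, so that being tested already favoured a difference, and their number lends no weight to the list. Both hairpins were compared with the same 3 shCtrl libraries, so the paired values below are not independent of each other.

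COL6A1 encodes the alpha1 chain of collagen VI, which forms beaded filaments next to basement membranes (chromosome 21, 45981770 to 46005048, plus strand, GRCh38.p14). Its level was 0.558, 0.446 and 0.485 FPKM in the shCtrl libraries, 9.53, 9.41 and 8.91 in shTRIB3-1 and 4.01, 3.56 and 3.65 in shTRIB3-2. The 3 groups did not overlap, and the shTRIB3-1 libraries were highest. On the log2(FPKM + 0.1) scale, COL6A1 rose by 3.98 with shTRIB3-1 (SE 0.0850, limma adjusted p 4.00e-12), and with shTRIB3-2 by 2.69 (SE 0.0850, adjusted p 5.11e-11). The means rose 18.7-fold and 7.53-fold.

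Collagen VI needs an alpha2 chain and one further chain, often alpha3, beside alpha1. COL6A2, which lies 93063 bases from COL6A1 on the same strand, stayed under the filter but had 12, 8 and 12 fragments in the shCtrl libraries, 105, 87 and 92 in shTRIB3-1 and 45, 51 and 62 in shTRIB3-2. The groups again did not overlap and stood in the same order as for COL6A1. COL6A3 had 0 fragments in each shCtrl library, a count that allows up to 3, then 4, 10 and 7 in shTRIB3-1 and 4, 2 and 3 in shTRIB3-2. The alpha3 chain thus remained close to the detection limit in all groups.

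LAMB3 encodes the beta3 chain of laminin-332, the laminin that anchors epithelia, and LAMA3 encodes the alpha chain of that trimer (LAMB3: chromosome 1, 209614870 to 209652425, minus strand). LAMB3 stood at 0.617, 0.492 and 0.554 FPKM in shCtrl, 7.95, 8.45 and 6.96 in shTRIB3-1 and 3.12, 3.28 and 3.06 in shTRIB3-2, with no overlap between groups. It rose by 3.59 with shTRIB3-1 (SE 0.0946, limma adjusted p 1.68e-11), and with shTRIB3-2 the rise was 2.32 (SE 0.0946, adjusted p 4.48e-10), or 14.05-fold and 5.69-fold in the means. Its share of the FPKM of the 4 laminin beta chains went from 0.625% ± 0.0628 to 7.04% ± 0.753 and 2.69% ± 0.107 (SD, n = 3 each).

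The alpha chain gene LAMA3 did not rise with LAMB3. LAMA3 was at 1.72, 1.66 and 1.76 FPKM in shCtrl, 1.49, 1.35 and 1.42 in shTRIB3-1 and 1.72, 1.53 and 1.48 in shTRIB3-2. The shTRIB3-1 libraries were lower than shCtrl by 0.26 (limma adjusted p 0.0251) and the shTRIB3-2 libraries overlapped shCtrl. That fall of LAMA3 did not survive every choice, since its adjusted p was 0.0889 after centring each library on its median, 0.0568 with quantile normalization, and 0.0610, 0.0780, 0.0805 and 0.0559 without shCtrl replicate 1, shCtrl replicate 3, shTRIB3-1 replicate 2 and shTRIB3-1 replicate 3.

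ITGA5 encodes the alpha5 chain, which pairs with ITGB1 as the classical fibronectin receptor (chromosome 12, 54395261 to 54419266, minus strand). It had 15, 16 and 15 fragments in shCtrl, 295, 297 and 252 in shTRIB3-1 and 75, 86 and 92 in shTRIB3-2, which corresponds to 0.0971, 0.102 and 0.0969 FPKM, then 2.00, 2.01 and 1.68, then 0.508, 0.572 and 0.607. The groups did not overlap, and ITGA5 went from barely detected to a low level. The rise was 3.32 with shTRIB3-1 (SE 0.149, limma adjusted p 1.29e-09), against 1.73 for shTRIB3-2 (SE 0.149, adjusted p 4.01e-07), both understated by the added 0.1, and the means rose 19.2-fold and 5.70-fold. At so low a level the size of the shTRIB3-2 rise depended on the scale, and ITGA5 fell short of a call there with a pseudocount of 1 (0.51) and with quantile normalization (0.96), while it rose by 2.47 with limma voom on the recovered fragments. Without any 1 shTRIB3-1 library, ITGA5 no longer reached the filter.

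The ligand and the beta chain of that receptor were abundant and nearly level. FN1 was at 1101, 1098 and 1092 FPKM in shCtrl, 1017, 961 and 999 in shTRIB3-1 and 1042, 991 and 982 in shTRIB3-2. Every knockdown library lay below every shCtrl library, a fall of 0.14 with shTRIB3-1 and of 0.13 with shTRIB3-2 (limma adjusted p 0.00321 and 0.00695) that no longer passed the test after centring on the library median (adjusted p 0.234 and 0.166) and, for shTRIB3-2, with quantile normalization (0.123). ITGB1 was at 152, 151 and 150 FPKM in shCtrl, 148, 154 and 150 in shTRIB3-1 and 142, 140 and 142 in shTRIB3-2. Its shTRIB3-1 libraries overlapped shCtrl, with a difference of -0.01 (95% confidence interval -0.07 to 0.05), and its shTRIB3-2 libraries were lower by 0.10 (adjusted p 0.00546, or 0.213 after centring).

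**Figure D2:**
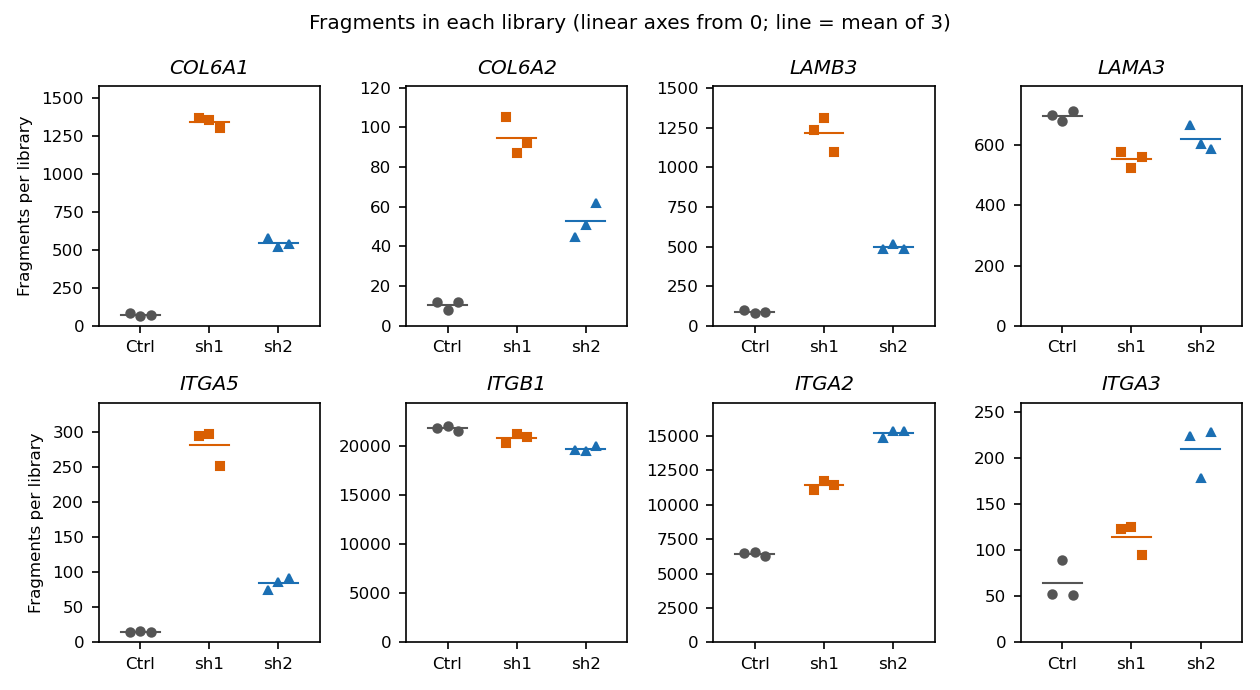
Fragments per library for COL6A1 and its partner chain COL6A2, LAMB3 and its partner chain LAMA3, ITGA5 and its partner chain ITGB1, and for ITGA2 and ITGA3, on linear axes that start at 0 and differ between panels. Points are the 3 libraries of shCtrl (Ctrl), shTRIB3-1 (sh1) and shTRIB3-2 (sh2) and lines are means. COL6A1, COL6A2, LAMB3 and ITGA5 are highest in shTRIB3-1, ITGA2 and ITGA3 are highest in shTRIB3-2, and LAMA3 stays at 525 to 715 fragments.

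The 250 bases before the RefSeq start (GRCh38.p14) are shown for 3 of the called genes, ITGA5, LAMB3 and ITGA2, and for LAMA3, which was not called, because the called genes rose together with both hairpins. RefSeq windows were found for 20 of the 26 tested genes, 28 windows in all, and the called genes COL6A1 and ITGA3 had none. A further LAMB3 window (chr1:209652330-209652579), which overlaps that of the outermost start, is not shown. It held a GC box and neither an AP-1 nor a TEAD match. Each window was searched on both strands for TGANTCA, the AP-1 motif, for GGGCGG, the GC box, and for GGAATG, the TEAD motif. Capitals mark the matches, which did not overlap each other in these windows.
ITGA5 (chr12:54419267-54419516, minus strand): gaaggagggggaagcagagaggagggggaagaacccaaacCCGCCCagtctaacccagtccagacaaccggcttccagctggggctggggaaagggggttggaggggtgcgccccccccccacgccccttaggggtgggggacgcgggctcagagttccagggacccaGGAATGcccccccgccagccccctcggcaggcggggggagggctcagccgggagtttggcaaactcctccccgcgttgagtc
LAMB3, outermost start (chr1:209652426-209652675, minus strand): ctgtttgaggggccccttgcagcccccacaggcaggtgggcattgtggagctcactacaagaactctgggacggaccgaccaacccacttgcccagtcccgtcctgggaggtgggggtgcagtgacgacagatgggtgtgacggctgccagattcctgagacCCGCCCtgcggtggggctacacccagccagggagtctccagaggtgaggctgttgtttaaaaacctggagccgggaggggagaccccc
LAMB3, inner start (chr1:209651375-209651624, minus strand): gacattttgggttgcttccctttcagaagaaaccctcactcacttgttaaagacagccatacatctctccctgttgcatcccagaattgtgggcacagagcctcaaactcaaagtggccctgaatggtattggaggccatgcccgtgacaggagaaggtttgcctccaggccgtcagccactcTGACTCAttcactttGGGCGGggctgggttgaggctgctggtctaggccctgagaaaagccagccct
ITGA2 (chr5:52989102-52989351, plus strand): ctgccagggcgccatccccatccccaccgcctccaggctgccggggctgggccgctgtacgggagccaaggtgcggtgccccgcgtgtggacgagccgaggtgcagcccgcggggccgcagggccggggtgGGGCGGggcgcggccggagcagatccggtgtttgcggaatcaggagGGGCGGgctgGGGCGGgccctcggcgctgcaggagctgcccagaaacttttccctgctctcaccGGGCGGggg
LAMA3, an internal start (chr18:23872770-23873019, plus strand): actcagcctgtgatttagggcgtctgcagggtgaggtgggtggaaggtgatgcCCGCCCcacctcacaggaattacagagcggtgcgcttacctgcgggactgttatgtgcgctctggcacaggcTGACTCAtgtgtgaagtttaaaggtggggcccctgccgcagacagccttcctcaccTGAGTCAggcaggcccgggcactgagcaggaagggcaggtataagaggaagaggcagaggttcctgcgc
The inner LAMB3 window held an AP-1 match that began 67 bases before the start, and the LAMA3 window held matches at 125 and 69 bases. ITGA5 held a TEAD match 82 bases before its start and a GC box at 210, and ITGA2 held 4 GC boxes. For comparison, 13035 windows were used, which covered 9088 of the 11265 tested genes. Of these windows, 4.42% held an AP-1 match, 64% a GC box and 9.96% a TEAD match. Among the 28 windows of the tested integrin, laminin and collagen genes and FN1 these were 7.14%, 75% and 7.14%. A match shows only that the letters are present.

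Among the integrin alpha chains, both tested collagen receptors rose. ITGA2, the alpha2 chain of a major collagen receptor of epithelia and platelets (chromosome 5, 52989352 to 53094779, plus strand), was at 23.1, 23.1 and 22.4 FPKM in shCtrl, 41.2, 43.5 and 41.9 in shTRIB3-1 and 55.3, 56.4 and 55.7 in shTRIB3-2. The groups did not overlap and rose in that order. ITGA2 rose by 0.88 (SE 0.0312, limma adjusted p 1.70e-10), short of the size needed for a call, and by 1.28 (SE 0.0312, adjusted p 5.88e-12). ITGA1, the neighbouring collagen-binding alpha1 gene 30142 bases away, went from 3.38 ± 0.240 FPKM to 4.40 ± 0.262 and 5.52 ± 0.295 (SD, n = 3 each), a rise of 0.37 and 0.69 (adjusted p 0.000492 and 2.21e-06). Of the exon bases of ITGA1, 5.77% are shared with genes on the same strand, among them PELO, and the counting may have split those fragments.

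The laminin-binding alpha chains rose as well. ITGA6, which pairs with ITGB1 or with ITGB4 of hemidesmosomes, was at 39.7, 41.1 and 40.0 FPKM in shCtrl, 70.9, 71.8 and 71.1 in shTRIB3-1 and 69.4, 70.6 and 72.4 in shTRIB3-2. The knockdown groups overlapped each other and lay above shCtrl, by 0.82 and 0.81 (limma adjusted p 1.53e-10 and 1.18e-10). ITGA6 was the most abundant alpha chain in all 3 groups, shCtrl included. ITGA3, another laminin receptor chain (chromosome 17, 50056110 to 50090481, plus strand), was low, at 0.300, 0.497 and 0.294 FPKM in shCtrl, 0.728, 0.739 and 0.553 in shTRIB3-1 and 1.33, 1.04 and 1.32 in shTRIB3-2. These groups did not overlap either, though shCtrl replicate 2 stood near the shTRIB3-1 libraries, and ITGA3 rose by 0.76 (SE 0.191, adjusted p 0.00332, or 0.782 with quantile normalization) and by 1.54 (SE 0.191, adjusted p 1.16e-05). With a pseudocount of 1 the latter was 0.71, short of a call, and without any 1 shTRIB3-2 library ITGA3 did not reach the filter.

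ITGAV, the alphaV chain that recognises fibronectin and vitronectin through the RGD motif, was at 32.2, 35.3 and 35.2 FPKM in shCtrl, 42.5, 46.4 and 45.6 in shTRIB3-1 and 48.9, 48.9 and 52.4 in shTRIB3-2. It rose in the same order as ITGA2, by 0.39 and 0.55 (limma adjusted p 1.01e-05 and 4.03e-07). ITGAE, the chain of an E-cadherin receptor of lymphocytes, was at 1.64 ± 0.114 FPKM in shCtrl and lower by 0.32 with shTRIB3-1 (adjusted p 0.0235). The fall of ITGAE no longer passed the test after centring (0.0891), with quantile normalization (0.0761), and without shCtrl replicate 2 (0.0508), shCtrl replicate 3 (0.0889) or shTRIB3-1 replicate 3 (0.0787). The FPKM of the 17 alpha chains together came to 104 ± 2.45 in shCtrl, 168 ± 3.54 for shTRIB3-1 and 187 ± 3.48 for shTRIB3-2 (SD, n = 3 each).

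Of the 4 tested beta chains, ITGB5 and ITGB4 rose with both hairpins. ITGB5, the partner of ITGAV in a vitronectin receptor, was at 26.6, 27.0 and 26.5 FPKM in shCtrl, 40.6, 39.9 and 38.4 in shTRIB3-1 and 43.2, 44.4 and 43.4 in shTRIB3-2, with no overlap, and rose by 0.57 and 0.71 (limma adjusted p 7.94e-09 and 9.09e-10). ITGB4, the beta chain of hemidesmosomes, was at 3.36 ± 0.207 FPKM, 4.11 ± 0.299 and 5.96 ± 0.614 (SD, n = 3 each) and rose by 0.28 and 0.81 (adjusted p 0.00849 and 2.21e-06). ITGB2, the beta chain of leukocyte integrins, differed by 0.01 with shTRIB3-1 (95% confidence interval -0.14 to 0.16) and by 0.21 with shTRIB3-2 (adjusted p 0.0146, or 0.0602 without shCtrl replicate 1 and 0.0705 without shTRIB3-2 replicate 3). All beta chains together came to 188 ± 0.806 FPKM in shCtrl, 201 ± 2.85 for shTRIB3-1 and 199 ± 1.68 for shTRIB3-2, and ITGB1 made up 80.3% ± 0.315, 74.8% ± 0.740 and 71.0% ± 0.169 of these.

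Among laminins, the beta1 and gamma chains rose modestly. LAMB1 was at 48.8, 46.7 and 47.9 FPKM in shCtrl, 68.5, 67.5 and 70.6 in shTRIB3-1 and 75.6, 73.7 and 73.6 in shTRIB3-2, a rise of 0.52 and 0.63 (limma adjusted p 1.19e-08 and 1.74e-09). LAMC1, the common gamma chain, was at 40.1, 39.8 and 39.2 FPKM in shCtrl, 50.6, 50.6 and 50.6 in shTRIB3-1 and 48.7, 46.5 and 47.7 in shTRIB3-2, a rise of 0.35 and 0.26 (adjusted p 2.96e-07 and 3.61e-06). Neither gene overlapped shCtrl in any knockdown library. LAMC3 rose from 2.20 ± 0.220 FPKM to 3.94 ± 0.141 and 3.92 ± 0.230 (SD, n = 3 each), by 0.82 and 0.81 (adjusted p 1.76e-06 and 1.79e-06).

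LAMB2 and LAMA5 behaved otherwise. LAMB2, the beta2 chain, was at 40.0, 40.0 and 40.8 FPKM in shCtrl, 34.6, 33.4 and 34.1 in shTRIB3-1 and 39.9, 39.8 and 39.8 in shTRIB3-2. It fell by 0.24 with shTRIB3-1 (limma adjusted p 7.65e-06), while with shTRIB3-2 the difference was -0.02 (95% confidence interval -0.08 to 0.05). LAMA5 overlapped shCtrl with both hairpins, with differences of -0.10 (95% confidence interval -0.23 to 0.04) and 0.04 (-0.10 to 0.17). LAMB1 thus went from 53.9% ± 0.588 of laminin beta chain FPKM in shCtrl to 62.2% ± 0.879 and 63.4% ± 0.334, and LAMB2 from 45.4% ± 0.647 to 30.8% ± 0.365 and 33.9% ± 0.283 (SD, n = 3 each).

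**Figure D3:**
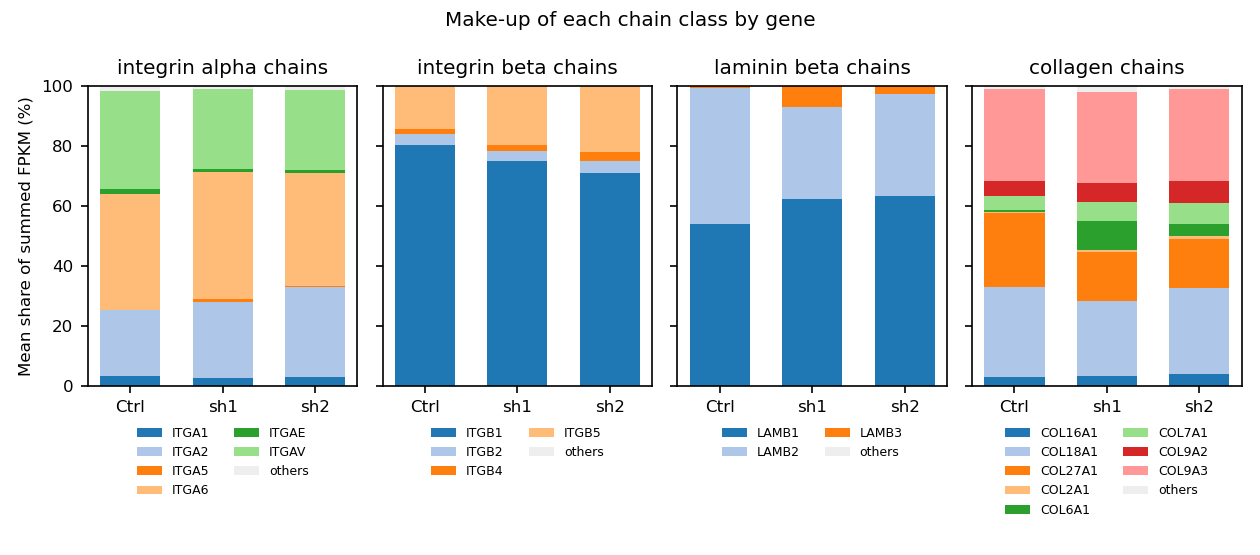
Share of the summed FPKM of each chain class that each gene took, as stacked bars of the mean of 3 libraries for shCtrl (Ctrl), shTRIB3-1 (sh1) and shTRIB3-2 (sh2). ITGB1 takes 80.3%, 74.8% and 71.0% of beta chain FPKM, LAMB3 takes 0.625%, 7.04% and 2.69% of laminin beta chain FPKM, and COL6A1 takes 0.529%, 9.58% and 3.82% of collagen FPKM.

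COL9A3, COL18A1 and COL27A1 were the most abundant collagens in these cells, with 30.8% ± 1.36, 30.0% ± 0.584 and 24.5% ± 0.938 of collagen FPKM in shCtrl (SD, n = 3 each), whereas among other fibrillar collagens COL2A1 had 85 to 222 fragments per library, COL1A1 had at most 15, and COL1A2 and COL3A1 had at most 2. COL9A3, a chain of the cartilage-type collagen IX, was at 27.0, 30.2 and 29.9 FPKM in shCtrl, 30.4, 27.4 and 30.1 in shTRIB3-1 and 31.9, 28.2 and 29.1 in shTRIB3-2. All 3 groups overlapped, with differences of 0.02 (95% confidence interval -0.11 to 0.14) and 0.04 (-0.09 to 0.16). COL27A1, a fibrillar collagen of cartilage, was the tested gene that fell most, from 23.1 ± 0.844 FPKM to 15.8 ± 0.608 and 15.9 ± 0.319, by 0.54 and 0.53 (limma adjusted p 1.47e-07 and 1.51e-07).

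COL18A1, which carries the endostatin fragment, was lower by 0.20 with shTRIB3-1 (limma adjusted p 0.000340) and overlapped shCtrl with shTRIB3-2. Of its exon bases, 18.5% lie opposite SLC19A1, and reads of both cannot be told apart if counting ignored the strand, which the sources do not state. COL7A1, the anchoring fibril collagen of epithelia, rose by 0.44 and 0.63 (adjusted p 1.80e-05 and 6.90e-07), and COL9A2 by 0.44 and 0.64 (adjusted p 0.000784 and 3.75e-05). COL16A1 differed by 0.09 with shTRIB3-1 (95% confidence interval -0.10 to 0.27) and rose by 0.42 with shTRIB3-2 (adjusted p 0.000709). Summed over the 43 collagens, FPKM hardly moved, at 94.0 ± 2.54 in shCtrl, 97.0 ± 3.42 for shTRIB3-1 and 97.7 ± 4.06 for shTRIB3-2 (SD, n = 3 each), while COL6A1 took 0.529% ± 0.0715, 9.58% ± 0.578 and 3.82% ± 0.141 of it.

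**Figure D4:**
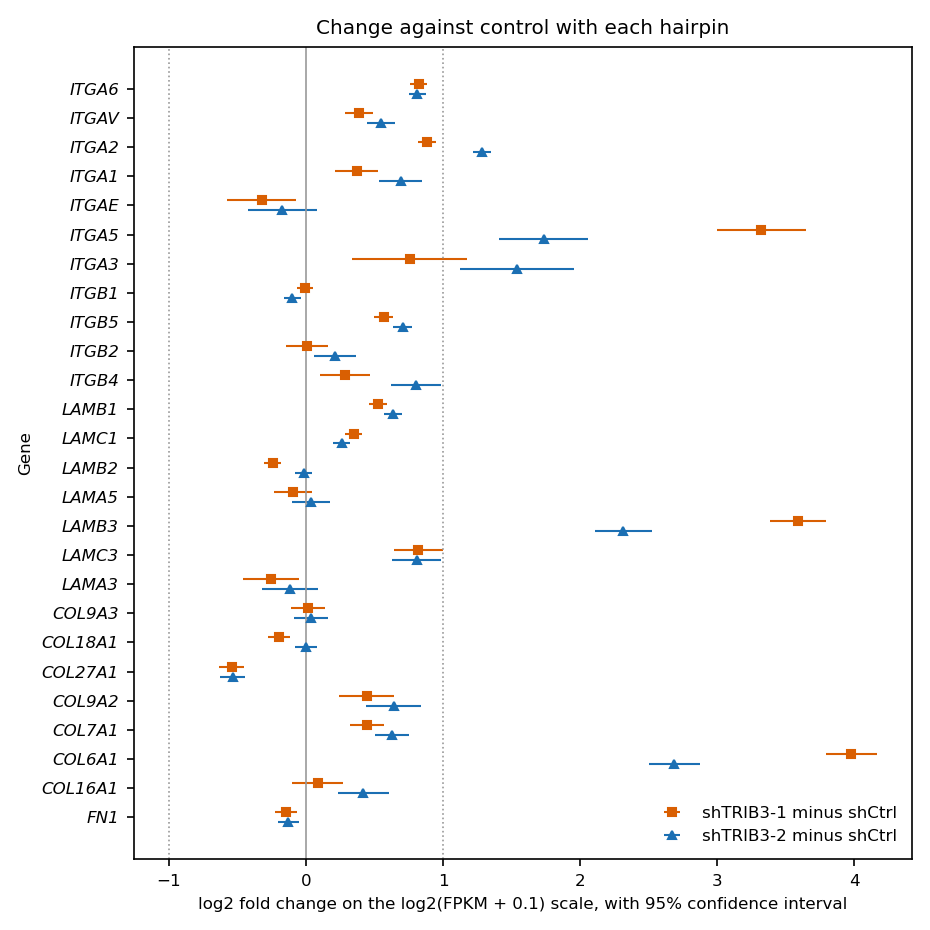
Log2 fold change of the 26 tested genes with shTRIB3-1 (squares) and shTRIB3-2 (triangles) against shCtrl, on the log2(FPKM + 0.1) scale, with 95% confidence intervals from limma. Dotted lines mark a change of 1 in either direction. COL6A1, LAMB3 and ITGA5 lie between 1.73 and 3.98, COL27A1 lies at -0.54 and -0.53, and no gene passes -1.

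Regardless of size, 15 of the 26 tested genes rose with shTRIB3-1 at a limma adjusted p under 0.05 (32.9% of all tested genes did) and 6 fell (41.5%). With shTRIB3-2, 17 rose (35.4%) and 3 fell (40.5%). The median log2 fold change of the 26 genes was 0.36 with shTRIB3-1 and 0.59 with shTRIB3-2, against -0.06 and -0.03 over all tested genes. Among the 22 genes that held at least 1 FPKM in every library, where no gene entered through 1 group alone, 11 rose and 6 fell with shTRIB3-1 (32.5% and 41.4% of the 10052 such genes) and 13 rose and 3 fell with shTRIB3-2 (35.4% and 40.3%). Of these 22, 0 were called higher with shTRIB3-1 (3.39%) and 1, ITGA2, with shTRIB3-2 (4%), and 0 were called lower with either (4.28% and 4.41%). Their medians were 0.18 and 0.34, against -0.05 and -0.03.

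The hairpins differed from each other in a way that split the list. COL6A1, LAMB3 and ITGA5 were lower in shTRIB3-2 than in shTRIB3-1, by 1.29 (SE 0.0850, limma adjusted p 3.04e-07), 1.27 (SE 0.0946, adjusted p 8.32e-07) and 1.59 (SE 0.149, adjusted p 5.40e-06), although TRIB3 was lower in shTRIB3-2. With a pseudocount of 1 the difference for ITGA5 was -0.89, short of a call. These were the 3 genes called lower in that comparison, against 1.79% of all tested genes, and 0 were called higher, against 0.284%. ITGA5 reached the 1 FPKM minimum only in shTRIB3-1, and ITGA3 only in shTRIB3-2. Being tested thus already favoured their differences between the hairpins, and these counts lend no weight to the order of either gene. At an adjusted p under 0.05 of any size, 12 genes were higher in shTRIB3-2 (25.1% of all tested genes) and 5 were lower (20.7%). The higher ones included ITGA3 by 0.78 (adjusted p 0.00553), ITGB4 by 0.52 (0.000328), ITGA2 by 0.40 (1.22e-06), ITGA1 by 0.32 (0.00318) and LAMB2 by 0.22 (5.63e-05), so that 3 integrin alpha chains of collagen or laminin receptors and ITGB4 followed the opposite order to ITGA5.

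Several of the small differences between hairpins, all under the size needed for a call, depended on scaling or on single libraries. The difference no longer passed the test for ITGB1 after rescaling to TPM (limma adjusted p 0.144) or quantile normalization (0.412), for LAMC1 after rescaling to TPM (0.228) and for LAMB1 after centring (0.0750). The same held for ITGB1 without shTRIB3-1 replicate 2 (limma adjusted p 0.0618), ITGAV without shTRIB3-1 replicate 1 (0.0683) or shTRIB3-2 replicate 3 (0.0709), and COL7A1 without the same libraries (0.0674 and 0.0813). ITGB2 did not pass it without the filter on low values (0.0677), or without shTRIB3-1 replicate 1 (0.0543) or 2 (0.128), or shTRIB3-2 replicate 1 (0.0558) or 3 (0.133), and LAMC1 without any 1 of the 3 shTRIB3-1 libraries or shTRIB3-2 replicate 2 or 3 (0.0573 to 0.0844). ITGA6, LAMC3 and COL27A1 overlapped between the hairpins, at differences of -0.01, -0.01 and 0.01.

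Among the 55 genes under the filter, 49 were above 0 in at least 3 libraries and could be fitted once the filter was dropped. In that fit of 20534 genes, which held 75 of the 81, 7 were called higher with shTRIB3-1 (5.34% of all genes fitted). These added COL6A2, ITGA7, COL17A1 and COL5A3 to COL6A1, LAMB3 and ITGA5, while ITGAL was called lower (4.49%). With shTRIB3-2, 6 were called higher, adding COL6A2 (4.96%), and COL5A2 and ITGAL were called lower (4.56%). These genes were low, and the pseudocount shrank their fold changes.

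Fragment numbers show what those calls rest on. ITGA7, a laminin-binding alpha chain of muscle, had 11, 8 and 17 fragments in shCtrl, 54, 88 and 63 in shTRIB3-1 and 26, 30 and 37 in shTRIB3-2, the same order as COL6A1. COL17A1, the transmembrane collagen of hemidesmosomes, had 11, 3 and 7, then 30, 51 and 79, then 28, 32 and 32. COL5A3, a fibrillar collagen, had 9, 3 and 5, then 29, 42 and 37, then 25, 19 and 35. For ITGA7, COL17A1 and COL5A3 the knockdown libraries lay above all shCtrl libraries.

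In the other direction, COL5A2, a fibrillar collagen, had 96, 89 and 90 fragments in shCtrl, 26, 42 and 38 in shTRIB3-1 and 21, 16 and 27 in shTRIB3-2. ITGAL, the alpha chain of a leukocyte integrin, had 159, 145 and 178, then 73, 58 and 45, then 36, 78 and 79. Both fell in every knockdown library. COL4A1 and COL4A2, the main chains of basement membrane collagen IV, start 126 bases apart in opposite directions, and both were scarce. COL4A1 had 5, 5 and 9 fragments in shCtrl, 26, 33 and 24 in shTRIB3-1 and 6, 4 and 10 in shTRIB3-2, so its shTRIB3-2 libraries overlapped shCtrl and its shTRIB3-1 libraries did not.

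Genes that work with these chains were read from 4 lists. Among 13 tested basement membrane partners and other matrix receptors, 7 rose and 6 fell with shTRIB3-1, and 7 rose and 5 fell with shTRIB3-2, at a limma adjusted p under 0.05. Over all tested genes, 32.9% rose and 41.5% fell with shTRIB3-1, and 35.4% rose and 40.5% fell with shTRIB3-2. NID1, which links laminin to collagen IV, went from 33.9 to 67.3 and 40.7 FPKM in the group means (log2 fold changes of 0.98 and 0.26). HSPG2, the perlecan core protein, rose by 0.63 and 0.53, and SDC4, a syndecan that acts with fibronectin receptors, by 0.92 and 1.31. BCAM, a receptor for LAMA5, fell by 0.80 and 0.58, and SDC2 by 0.73 and 0.75.

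Of 22 tested focal adhesion adaptors and kinases, which tie integrins to actin, 16 rose (32.9% of all tested genes did) and 4 fell (41.5%) with shTRIB3-1, while 14 rose (35.4%) and 5 fell (40.5%) with shTRIB3-2. FLNA rose by 0.90 and 0.70, VCL by 0.89 and 0.65, PXN by 0.63 and 0.78 and PTK2, the focal adhesion kinase, by 0.53 and 0.56, all in group means of 8.83 FPKM (PXN) or more in shCtrl. TNS1 was the only one called, with shTRIB3-1 (2.08), and it was lower in shTRIB3-2 by 1.12 (limma adjusted p 0.000105). TLN2 fell by 0.75 and 0.98, and TNS3 by 0.74 and 0.63.

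Among 21 tested genes of collagen folding, modification and crosslinking, 10 rose (32.9% of all tested genes did) and 10 fell (41.5%) with shTRIB3-1, while 7 rose (35.4%) and 10 fell (40.5%) with shTRIB3-2. SERPINH1, the collagen chaperone HSP47, went from 27.4 to 114 and 39.2 FPKM in the group means and stood lower in shTRIB3-2 than in shTRIB3-1 by 1.54. PLOD1 and PLOD3, which hydroxylate collagen lysines, rose by 0.60 and 0.56 with shTRIB3-1 and differed by -0.03 and -0.07 with shTRIB3-2. LOX, which crosslinks collagen, was called lower with both, by 1.87 and 2.05, from 13.7 to 3.66 and 3.23 FPKM. BMP1 was called higher with both, by 1.02 and 1.34, from 4.81 to 9.84 and 12.3 FPKM. SERPINH1 and P4HA2 were called higher with shTRIB3-1 alone, by 2.06 and 1.12.

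Among 13 tested matrix proteases and their inhibitors, 11 rose with shTRIB3-1 (32.9% of all tested genes did) and 12 with shTRIB3-2 (35.4%). Of the 13, 0 fell with either (41.5% and 40.5%). PLAUR, CTSK and PLAU stayed under 1 FPKM in every shCtrl library and were tested only through knockdown libraries, PLAU through shTRIB3-2 alone. Being tested thus already favoured a rise of these genes, and their number lends no weight to the counts. TIMP2, an inhibitor of metalloproteases, went from 13.9 to 49.5 and 62.4 FPKM, and PLAUR, the urokinase receptor, from 0.660 to 4.45 and 2.61. PLAU, its ligand, differed by -0.39 with shTRIB3-1 (limma adjusted p 0.0921) and rose by 0.62 with shTRIB3-2 (adjusted p 0.0125). The medians of the 4 lists in this order were 0.14, 0.51, 0.07 and 0.90 with shTRIB3-1 and 0.26, 0.46, -0.07 and 0.92 with shTRIB3-2, against -0.06 and -0.03 over all tested genes. Counts and medians of the 4 lists were not recomputed on genes that held 1 FPKM in every library.

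**Figure D5:**
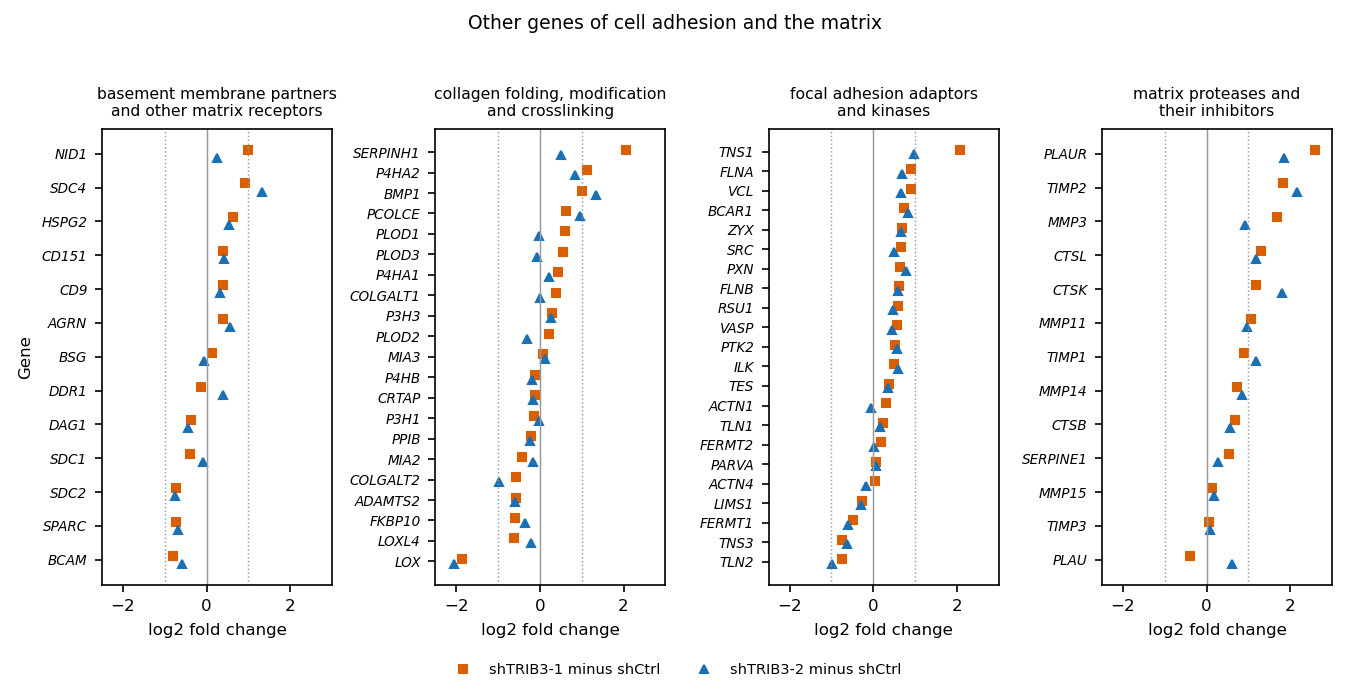
Log2 fold change of the tested genes of 4 lists of matrix and adhesion genes with shTRIB3-1 (squares) and shTRIB3-2 (triangles) against shCtrl. Dotted lines mark a change of 1 in either direction, and genes are ordered by the shTRIB3-1 value within a list. PLAUR, TNS1 and SERPINH1 lie furthest to the right with shTRIB3-1 and LOX furthest to the left with both hairpins.

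Integrins and collagens also mark cells other than hepatocytes, and such markers were read in the same libraries. Of 8 fibroblast and stellate cell markers, DCN and LUM were at most near 0 and the summed level, mostly ACTA2, was 58.5 to 66.2 FPKM in shCtrl, 44.3 to 47.6 for shTRIB3-1 and 56.7 to 59.7 for shTRIB3-2. DES had means of 0.0829, 0.950 and 0.141 FPKM, in the same order as COL6A1, with shCtrl and shTRIB3-2 overlapping, and TAGLN rose by 0.77 with shTRIB3-1 and fell by 0.40 with shTRIB3-2. PDGFRB, with means of 0.157, 0.0758 and 0.104 FPKM, and RGS5, with 0.259, 0.125 and 0.119, were lower in every knockdown library than in every shCtrl library. The 6 endothelial markers summed to 0.259 to 0.304, 0.223 to 0.269 and 0.264 to 0.314 FPKM. Of 6 leukocyte markers, PTPRC, CSF1R and CD3E were at or near 0, and the sum of 1056 to 1177, 532 to 559 and 611 to 650 FPKM came mostly from LYZ. The part of these markers in the results was not tested.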

How the data were processed

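FPKM values for 9 HepG2 RNA-seq libraries (3 per group, grouped by their labels) were computed and deposited by the authors, with 1 column per library. The study's methods name STAR, the submitters' processing notes name HTSeq, R 3.2.0 and GRCh38, and annotation release and strand use in counting are not given in the sources used here. FPKM does not correct for a change in library composition. Fragment numbers were recovered from the FPKM values (all 24204 genes whole within 0.02 of a fragment), and totals of 34206726 to 36311029 set counting precision. Fragments carry no molecular identifiers, so the limit for a count of 0 covers counting error only.

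Genes with at least 1 FPKM in at least 3 libraries (11265) were tested as log2(FPKM + 0.1) with limma 3.58.1 in R 4.3.3, with 3 group means, a mean-variance trend and two-sided p-values adjusted over all tested genes by Benjamini-Hochberg. A call needed an adjusted p under 0.05 and an absolute log2 fold change above 1. Fold changes understate changes of low genes. Replicates differed by more than sampling noise (chi-square per degree of freedom 3.13 to 7.54). Called genes and the 10 genes with the highest mean FPKM are described library by library, the others by means or ranges. COL6A2, COL6A3, LAMA3, ITGA7, COL17A1, COL5A3, COL5A2, ITGAL and COL4A1 were named after their values were seen. The genes, lists and tests were chosen with earlier results of these data known. Gene positions and promoter sequences are from RefSeq (GRCh38.p14), hairpin targets from the study's oligonucleotide list, matched to GENCODE transcripts. Alternatives were another pseudocount, 2 other filters, 3 scalings, limma voom on recovered fragments, a replicate block and leaving out each library.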

Additional observations from a re-analysis of the deposited data

Results flagged for a closer look

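COL6A1, ITGA5 and LAMB3 responded to the 2 hairpins to different extents, which stood out because the difference between hairpins was itself tested. The log2 difference, shTRIB3-2 minus shTRIB3-1, was -1.29 for COL6A1 (limma adjusted p 3.04e-07), -1.59 for ITGA5 (adjusted p 5.40e-06) and -1.27 for LAMB3 (adjusted p 8.32e-07). In each case the 3 shTRIB3-2 libraries lay between the shCtrl and the shTRIB3-1 libraries without overlap, while TRIB3 was lowest in shTRIB3-2. ITGA5 reached the 1 FPKM minimum only in shTRIB3-1, so being tested already favoured its difference. What underlies the difference was not tested.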

How the results depend on the processing

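No value that passed the test changed direction under any alternative. Of 1290 values over 78 gene comparisons, 1210 kept their direction and side of the threshold, 37 were no longer past it, 7 newly passed it and 36 changed sign without passing it before or after, and 49 comparisons kept their direction and side under every alternative. Without the filter, 7 of the genes were called higher and 1 lower with shTRIB3-1, 2 were called lower with shTRIB3-2, and 1 was called lower with both, because low genes were then tested. With a pseudocount of 1, 3 were called higher with shTRIB3-2 (ITGA5 and ITGA3 fell short), and with a minimum of 5 FPKM, which fewer genes reached, also 3. Quantile normalization gave 1 gene higher in shTRIB3-2 than in shTRIB3-1, ITGA3, and its cause was not tested. Leaving out 1 library gave 2 to 3 genes called higher with shTRIB3-1, 4 to 5 with shTRIB3-2 and 2 to 3 with both. ITGA5 no longer reached the filter without any 1 shTRIB3-1 library, and ITGA3 without any 1 shTRIB3-2 library, which is the filter's construction.

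With the replicate number as a block, the replicate block gave the same counts, 3 higher with shTRIB3-1 and 5 with shTRIB3-2. Deviations of same-numbered libraries correlated at -0.0742 to 0.0933, and those of differently numbered libraries at -0.0756 to 0.0479. For shTRIB3-1 with shTRIB3-2 the same-numbered values were all positive (0.0933, 0.0603 and 0.0279). These small correlations do not settle whether the numbers pair the libraries. Under the block LAMA5 passed the test with shTRIB3-1 (-0.10, adjusted p 0.0473) and between the hairpins (0.13, adjusted p 0.0189), the latter also with limma voom (0.0196) and without shTRIB3-2 replicate 2 (0.0356). Depth limits what can be said of the 28 genes with at most 5 fragments.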
